A study of Mus musculus with 37 samples.

Results

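The genes described here make and load MHC class I molecules and the immunoproteasome: the light chain B2m, the heavy chains H2-K1 and H2-D1, the peptide transporter subunits Tap1 and Tap2, the loading factor Tapbp, the immunosubunits Psmb8, Psmb9 and Psmb10, and the regulator Nlrc5. The members were these 10 gene symbols, chosen by name and not by their values, out of 31533 gene symbols in 3 tables of counts. The tables of whole organoids and of the first sorted cell experiment listed 9 of them each, and the table of the irradiation cohort listed all 10. Nlrc5 was not analysed here in the first pair of tables.

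MHC class I molecules show peptides from inside the cell to CD8 T cells, and intestinal epithelial cells carry them on their surface. Proteasomes cut cytosolic proteins into peptides, the transporter formed by Tap1 and Tap2 moves the peptides into the endoplasmic reticulum, and Tapbp (tapasin) holds the empty heavy chain and B2m at the transporter until a peptide is bound. Interferons raise most of these genes together, partly through Nlrc5, which acts on class I promoters, and they replace the constitutive catalytic subunits Psmb6, Psmb7 and Psmb5 of the proteasome by Psmb9, Psmb10 and Psmb8.

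Organoids were epithelial cultures grown from jejunal crypts of adult mice. Whole organoids came from C57Bl/6 mice, and 3 were left untreated and 4 received 100 nM vasoactive intestinal peptide (VIP), a neuropeptide of the gut, for 72 h. Live Lgr5-EGFP+ cells were sorted from organoids of Lgr5-EGFP-IRES-CreERT2 reporter mice, in which EGFP marks cells with an active Lgr5 locus, in 4 untreated and 4 VIP-treated cultures (100 nM, 72 h). The irradiation cohort held Lgr5-EGFP+ cells sorted from the organoids of 4 reporter mice in 4 groups of 4: control, control with 6 Gy of X-rays, 100 nM VIP, and 6 Gy followed by 100 nM VIP for 48 h. The hours of VIP in the non-irradiated group of this cohort were not given in the sources used here. Below, irradiation of VIP-treated cells means the irradiated VIP group against the non-irradiated VIP group. These were separate cultures, and in the irradiated ones VIP came after the 6 Gy. Each mouse gave 1 culture to each group, apart from mouse 4 of the whole organoids, which had no untreated culture and therefore did not enter the fold changes.

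Libraries tagged the 3′ ends of transcripts with unique molecular identifiers (UMIs), so that a captured molecule counts once. The samples held 3722716 to 6330404 UMIs in whole organoids, 575242 to 1104126 in the first sorted experiment and 1075715 to 1876729 in the irradiation cohort. Levels are given as CPM, UMI counts scaled to a common library size with TMM factors within an experiment, and levels of different experiments were not compared by a test. Epithelial markers summed to 5266 CPM or more in every sample. Immune markers summed to at most 13.2 CPM in any sample, and stromal and endothelial markers to at most 5.12 CPM. In bulk RNA, fewer cells of a type cannot be told apart from less RNA per cell. The tests hold the mouse as a block, so the p-values measure the spread left after each mouse's own level is removed.

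Of the 10 members, 7 lie in the MHC region of chromosome 17 (Tapbp, H2-K1, Psmb9, Tap1, Psmb8, Tap2 and H2-D1), B2m lies on chromosome 2, and Psmb10 and Nlrc5 lie on chromosome 8. Tap1 (chr17:34187553-34197225, plus strand) and Psmb9 (chr17:34181987-34187764, minus strand) are divergent neighbours whose gene models overlap at their starts on GRCm38. Their RefSeq start sites are 225 bases apart, and whether reads were counted by strand is not given in the sources used here. RefSeq promoter windows of GRCm38.p6 were found for 8 of the members, not for Tap2 and Nlrc5. In these windows, 5 motifs of class I gene promoters were searched on both strands over the 250 bases before the start site. They were an interferon response element core (GAAANNGAA), a kappaB site (GGGNNTTCC), a gamma-activated site (TTCNNNGAA), the core of a cAMP response element (TGACG) and the CCAAT box (CCAAT). The promoters of B2m and H2-K1, a light and a heavy chain with no passing difference, are shown whole on the strand of the gene, with each match in capitals (ATTGG is CCAAT on the other strand). The B2m window is chr2:122147437-122147686, whose last base is the first base of the annotated gene, and the H2-K1 window is chr17:34000348-34000597 on the minus strand.

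B2m: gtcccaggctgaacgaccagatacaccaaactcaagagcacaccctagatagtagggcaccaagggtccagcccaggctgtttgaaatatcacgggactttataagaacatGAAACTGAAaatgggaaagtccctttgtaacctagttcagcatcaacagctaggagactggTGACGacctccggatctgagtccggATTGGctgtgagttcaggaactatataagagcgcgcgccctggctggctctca
H2-K1: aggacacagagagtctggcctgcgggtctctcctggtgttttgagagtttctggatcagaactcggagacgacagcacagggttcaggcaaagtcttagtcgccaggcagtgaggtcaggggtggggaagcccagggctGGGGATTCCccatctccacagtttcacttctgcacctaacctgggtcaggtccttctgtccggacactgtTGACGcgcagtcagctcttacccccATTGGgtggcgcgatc

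The interval that Tap1 and Psmb9 share held 1 TGACG and 1 CCAAT, shown as 30-base windows on the Tap1 strand (chr17:34187458-34187487 and chr17:34187331-34187360), because the directions of the pair differed under irradiation. The kappaB windows of the heavy chains (H2-K1, chr17:34000439-34000468, minus strand, and H2-D1, chr17:35262913-35262942, plus strand) are set beside each other, because H2-D1, unlike H2-K1, was higher with VIP in every mouse of 3 comparisons.

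Tap1 and Psmb9, TGACG: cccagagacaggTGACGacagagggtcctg
Tap1 and Psmb9, CCAAT: tttCCAATcagcggctgcgcgcggtgcagg
H2-K1, kappaB: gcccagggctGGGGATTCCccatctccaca
H2-D1, kappaB: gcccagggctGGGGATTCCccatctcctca

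The kappaB windows of the heavy chains were identical at 29 of 30 bases and differed at A28T, written as the H2-K1 base, the position from the 5′ end of the window and the H2-D1 base. Their 30-base windows around TGACG, not shown, were identical at 24 bases and differed at 6. The kappaB letters were found in H2-K1 and H2-D1, 2 of 8 members with a window, against 4.98% of 32851 promoters. TGACG was found in 5 of 8 (B2m, H2-K1, H2-D1, Tap1 and Psmb9) against 17.8% of promoters, and CCAAT in 6 of 8 against 33.8%. The letters GAAANNGAA of the interferon response core were found in 1 of 8 (B2m) against 7.13%. This core was searched only with GAAA before GAA, and the other order was not searched. The windows of H2-K1 and H2-D1 hold tttcacttc after the kappaB site, which is the other order on the opposite strand. The count therefore cannot show that the heavy chain promoters lack an interferon response element. The gamma-activated site was found in 1 of 8 (Psmb8) against 7.02%. Tap1 and Psmb9 were counted once each for the same letters between them. These matches are descriptions of the letters and say nothing about binding of a factor in these cells.

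**Figure D1:**
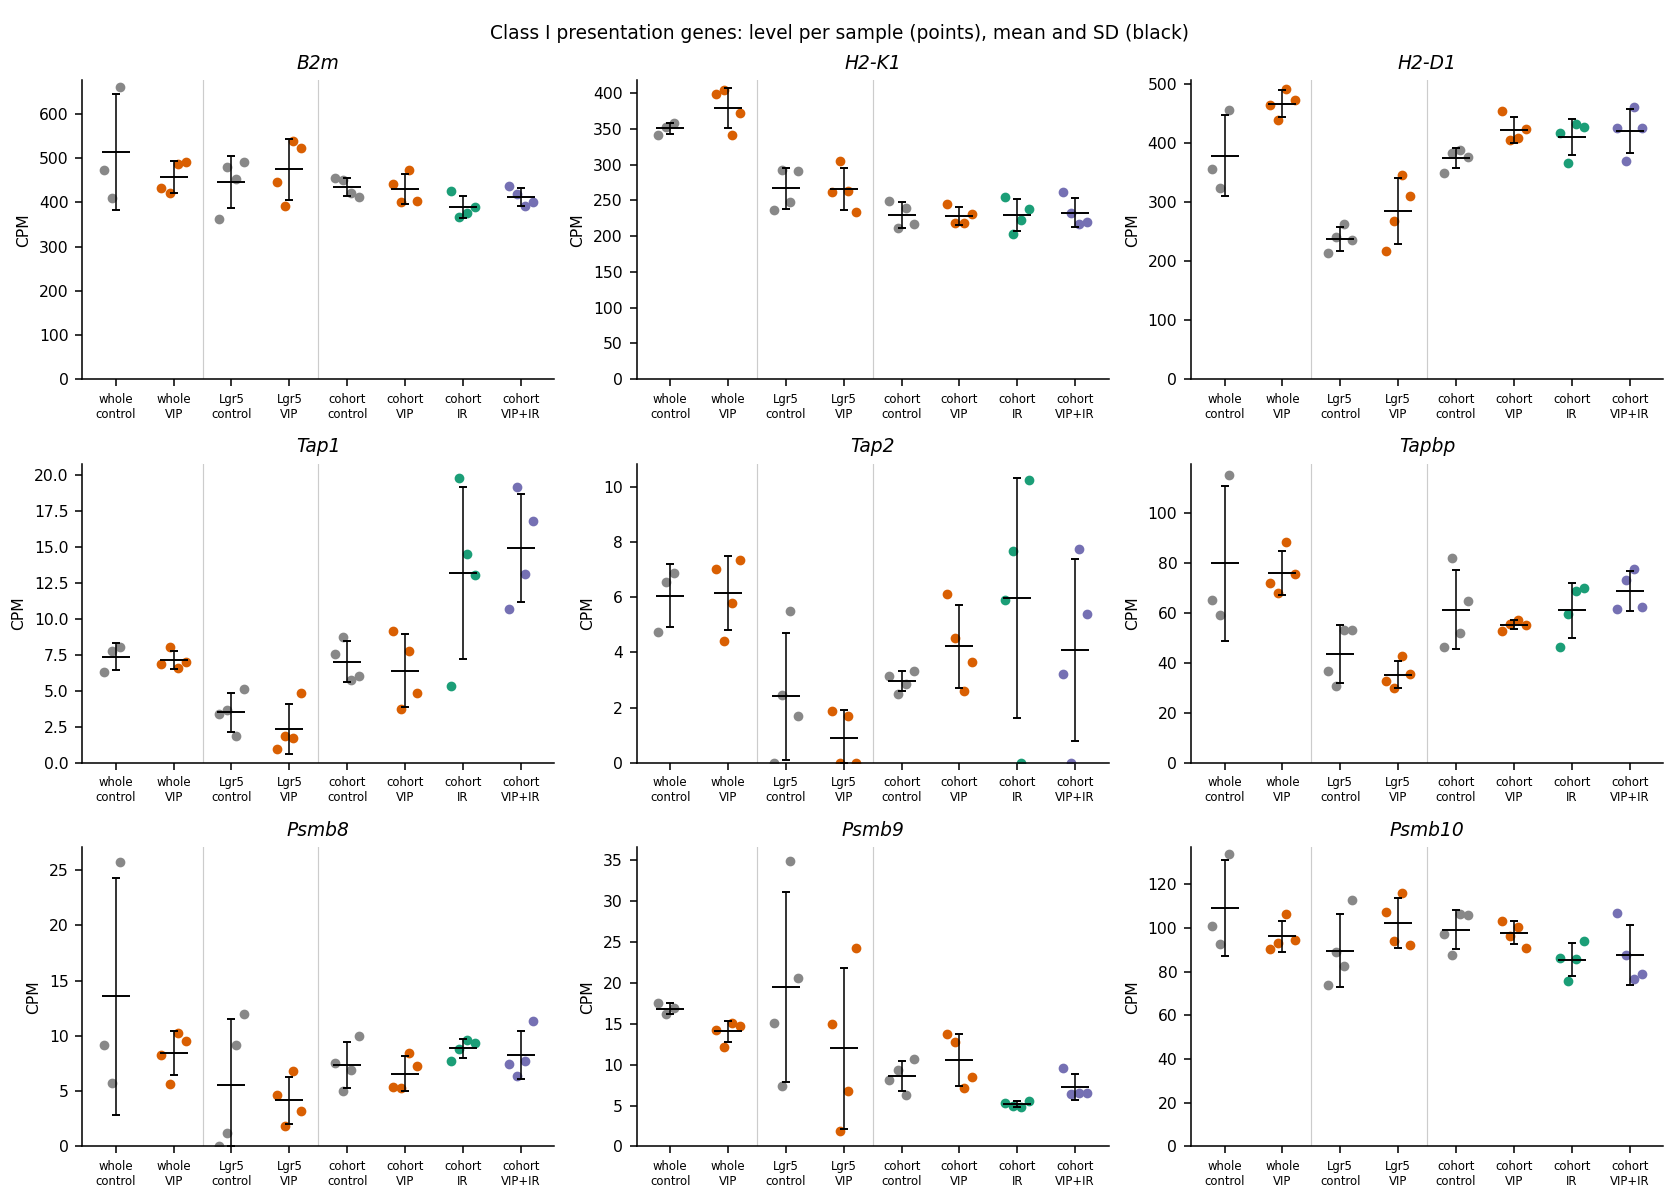
Level of 9 members in CPM (vertical axis, from 0) in every sample of the 8 groups; each point is a sample, ordered by mouse within a group, and the black bar is the mean with its SD, cut at 0. Tap1 is highest in the irradiated groups (means of 13.2 and 14.9 CPM), and untreated mouse 3 of the whole organoids stands high in Psmb8 at 25.7 CPM.

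Few differences of the class I genes passed the threshold. With edgeR's quasi-likelihood test, the mouse as a block and Benjamini-Hochberg adjustment over all genes tested, 1 member passed an adjusted p of 0.05 in 1 comparison: Tap1 was 2.30-fold higher after irradiation of VIP-treated cells. In that comparison 1 of 8 members tested was called, against 7.78% of all genes. No member was called for VIP in whole organoids (0 of 9 tested, background 4.82%), VIP in Lgr5-EGFP+ cells (0 of 5, 0.0885%), VIP in the non-irradiated cohort (0 of 8, 0.742%), VIP in irradiated cells (0 of 8, 0.221%) or irradiation of untreated cells (0 of 8, 4.46%). At the unadjusted p of 0.05 the counts were 2, 0, 1, 0 and 4 in that order, and 2 for irradiation of VIP-treated cells, against 16.4%, 5.5%, 12.4%, 5.75%, 16.7% and 21.7% of all genes. DESeq2's Wald test called 0 members in each of the 6 comparisons. Over all genes it called 300 of 12727, 2 of 6778, and 74, 12, 281 and 489 of 9976, in the same order. The groups did not overlap for 1 member with VIP in whole organoids (background 9.71%), 0 in the first sorted experiment (2.63%), 1 with VIP in the non-irradiated cohort (6.66%), 1 with VIP in irradiated cells (2.9%), 1 with irradiation of untreated cells (8.48%) and 2 with irradiation of VIP-treated cells (12.8%). The median log2 fold change of the tested members was between −0.07 and 0.09 in the 6 comparisons, and that of all genes was within 0.01 of 0. The comparisons within the cohort share samples with each other, so their values are not independent.

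**Figure D2:**
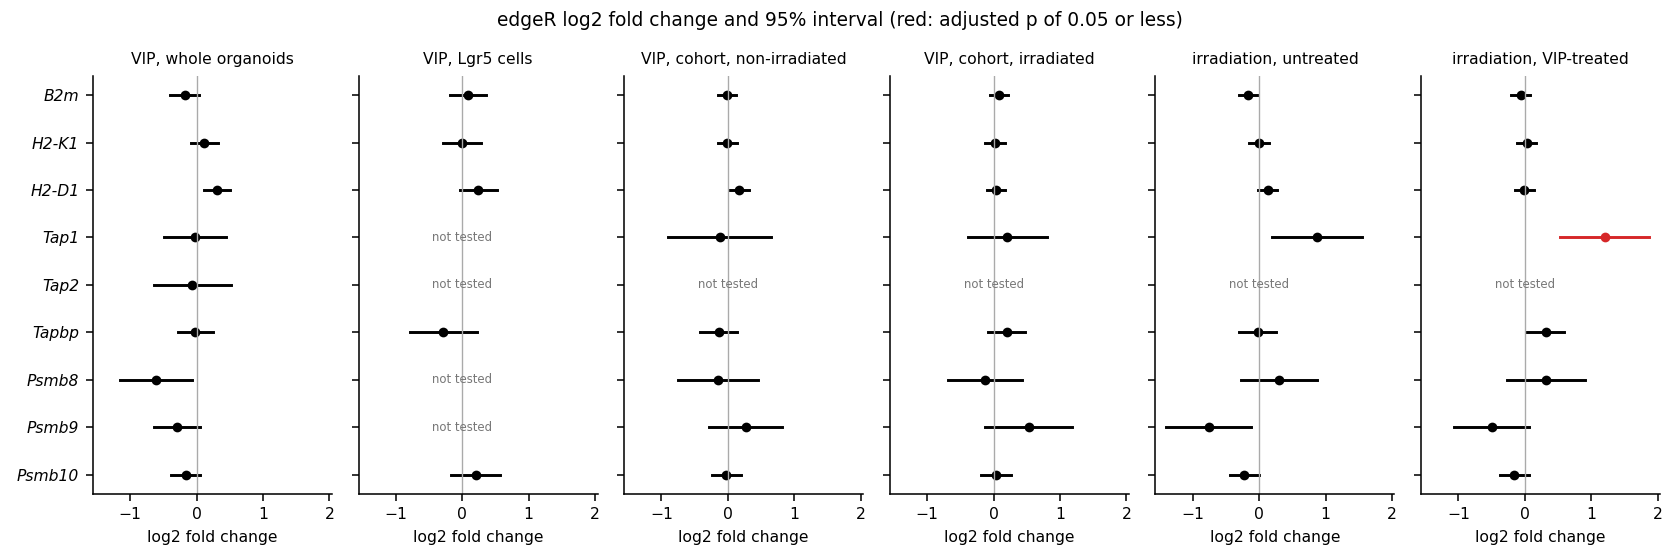
Log2 fold change of 9 members (points, horizontal axis) with the 95% interval (lines) from edgeR in 6 comparisons; red marks an adjusted p of 0.05 or less. Tap1 after irradiation of VIP-treated cells is the red interval (0.53 to 1.87), and the intervals of B2m and H2-K1 in the cohort stay within −0.30 to 0.22.

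B2m, the light chain that every class I heavy chain needs, was measured at 367 to 474 CPM in the 16 cohort samples. The control cultures of mice 1 to 4 had 456, 450.0, 422 and 413 CPM and the irradiated controls 425, 367, 376 and 390.2 CPM. Each mouse was lower after irradiation, and the groups overlapped, with a log2 fold change of −0.16 (SE 0.07, 95% interval −0.30 to −0.02, edgeR adjusted p = 0.209). After irradiation of VIP-treated cells it was −0.07 (SE 0.07, adjusted p = 0.632), with 3 of 4 mice lower. With VIP the B2m difference was −0.18 (SE 0.10, −0.39 to 0.04) in whole organoids, 0.09 (SE 0.14, −0.19 to 0.36) in Lgr5-EGFP+ cells, −0.02 (SE 0.07) in the non-irradiated cohort and 0.08 (SE 0.07) in irradiated cells on the log2 scale, with no adjusted p of edgeR below 0.426. In irradiated cells the VIP-treated culture of each of the 4 mice was higher.

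H2-K1, a classical heavy chain, differed by at most 0.12 in size on the log2 scale in the 6 comparisons. Its means ± SD (n = 4) in the cohort were 229 ± 18.2 CPM in control, 230 ± 21.9 in irradiated control, 228 ± 12.5 in VIP and 233 ± 20.4 CPM in irradiated VIP-treated cells. The 4 groups overlapped. The 95% intervals of edgeR for irradiation reached from 0.90-fold to 1.10-fold in untreated cells and from 0.92-fold to 1.13-fold in VIP-treated cells. In whole organoids H2-K1 had 341, 352 and 358 CPM untreated and 398, 404, 341 and 372 CPM with VIP. The VIP culture was higher in 2 of 3 mice (log2 fold change 0.12, SE 0.09, edgeR adjusted p = 0.589).

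H2-D1, the other classical heavy chain of these mice, was higher with VIP in all 3 mice of the whole organoids, all 4 of the first sorted experiment and all 4 of the non-irradiated cohort, and none of the 3 differences passed the threshold. Whole organoids of mice 1 to 3 had 356, 324 and 457 CPM untreated, and mice 1 to 4 had 464, 439, 492 and 472 CPM with VIP. The untreated culture of mouse 3 lay inside the VIP range, so the groups overlapped. VIP gave a log2 fold change of 0.31 (SE 0.09, 95% interval 0.11 to 0.51, a fold of 1.24, edgeR adjusted p = 0.0826).

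The H2-D1 value of mouse 3 rested on technical libraries that differed. With VIP the first library of that culture gave 566 CPM by library size and the second 351 CPM, while the pairs of the other 3 VIP cultures differed less (466 and 466, 467 and 425, 479 and 455 CPM). Without the second library the log2 fold change was 0.40 (edgeR adjusted p = 0.00260), and without mouse 3 it was 0.41 (adjusted p = 7.39e-05). It was also past the threshold with the first technical libraries only (0.52, adjusted p = 0.00359). These 3 settings also called more of all genes: 1261 of 12684, 1668 of 12993 and 881 of 11354, against 614 of 12727 with all libraries. By DESeq2's Wald test on all libraries it was 0.30 (adjusted p = 0.393). Without mouse 1 the edgeR adjusted p was 0.586 (377 of 12824 genes called) and without mouse 2 it was 0.471 (363 of 12781 genes called).

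In sorted cells without irradiation, H2-D1 had 213, 241, 263 and 236 CPM untreated and 217, 267, 347 and 310.1 CPM with VIP. The groups overlapped through mouse 1, whose cultures were nearly equal. On the log2 scale the difference was 0.24 (SE 0.14, −0.04 to 0.53, edgeR adjusted p = 0.884). In the non-irradiated cohort, the controls had 349, 383, 389 and 377 CPM and the VIP-treated cells 454, 405, 409 and 423 CPM. These groups did not overlap, and the difference on the log2 scale was 0.17 (SE 0.07, 0.03 to 0.32, edgeR adjusted p = 0.291). In irradiated cells H2-D1 averaged 420.4 ± 37.5 CPM with VIP against 410.2 ± 30.5 CPM (SD, n = 4), a log2 difference of 0.04 (−0.10 to 0.18, edgeR adjusted p = 0.985). The VIP effects in non-irradiated and irradiated cells differed by −0.14 on the log2 scale (SE 0.10, edgeR adjusted p = 0.902). H2-K1, H2-D1 and other class I heavy chains have near-identical stretches, so part of their counts may belong to one another.

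Tap1 encodes one subunit of the peptide transporter, and it was the member with the largest difference under irradiation. In control cells of mice 1 to 4 it had 7.53, 8.76, 5.72 and 5.99 CPM, and after irradiation 5.32, 19.8, 14.5 and 13.0 CPM. Irradiated cells were higher in mice 2, 3 and 4 and lower in mouse 1, so the groups overlapped. Irradiation gave a log2 fold change of 0.87 (SE 0.33, 95% interval 0.19 to 1.55, edgeR adjusted p = 0.152). In VIP-treated cells Tap1 had 9.18, 3.76, 7.79 and 4.86 CPM without and 10.7, 19.1, 13.1 and 16.8 CPM with irradiation. Here the irradiated culture of each of the 4 mice was higher and the groups did not overlap. Tap1 rose by a log2 fold change of 1.20 (SE 0.33, 0.53 to 1.87), a fold of 2.30 (1.44 to 3.66, edgeR adjusted p = 0.0213).

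The size of the Tap1 difference varied with the mouse, and its counts were low, at 5 to 36 UMIs per sample. In VIP-treated cells the adjusted p of edgeR was 0.167 without mouse 2, 0.0540 without mouse 3 and 0.181 without mouse 4, with log2 fold changes of 0.92, 1.38 and 1.0. In untreated cells it was past the threshold without mouse 1 (1.23, adjusted p = 0.0196). That setting called 643 of 9951 genes, against 445 of 9976 with all mice. DESeq2's Wald test gave 1.19 and an adjusted p of 0.0676 for VIP-treated cells. The irradiation effects with and without VIP differed by 0.33 on the log2 scale (SE 0.47, −0.65 to 1.31, edgeR adjusted p = 0.959). The VIP difference of Tap1 was 0.21 (−0.39 to 0.80) in irradiated cells, −0.12 (−0.90 to 0.65) in the non-irradiated cohort and −0.02 (−0.50 to 0.45) in whole organoids on the log2 scale. In the first sorted experiment Tap1 had 1 to 3 UMIs per sample and was not tested.

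Tap2, the partner subunit of Tap1, was tested in whole organoids only. There it had 4.75, 6.57 and 6.87 CPM untreated and 7.02, 4.42, 5.79 and 7.37 CPM with VIP, with overlapping groups and a log2 fold change of −0.07 (SE 0.27, −0.65 to 0.51, edgeR adjusted p = 0.941). In the cohort Tap2 had 4 to 5 UMIs in each control sample. The irradiated controls of mice 1 to 4 had 10, 14, 0 and 11 UMIs, and the irradiated VIP-treated cells had 6, 0, 13 and 10 UMIs. The irradiated samples thus held both the highest counts and the counts of 0. A count of 0 in this cohort allows a level of up to 1.60 to 2.90 CPM, taken as 3 counts of the sample, which covers counting error only. In the first sorted experiment Tap2 had 0 to 3 UMIs per sample.

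Tapbp, which bridges the transporter and the heavy chain, had 52.8, 55.7, 57.1 and 55.3 CPM in VIP-treated cells and 61.4, 73.3, 77.5 and 62.2 CPM after irradiation of VIP-treated cells. The irradiated culture of each of the 4 mice was higher and the groups did not overlap, with a log2 fold change of 0.31 (SE 0.13, 0.04 to 0.59, edgeR adjusted p = 0.165). Without VIP the controls already covered 46.4 to 82.0 CPM and the irradiated controls 46.1 to 69.8 CPM. That difference was −0.02 (SE 0.14, −0.30 to 0.26, edgeR adjusted p = 0.963), and the interaction of VIP and irradiation was 0.34 (SE 0.19, −0.06 to 0.73, adjusted p = 0.841). In Lgr5-EGFP+ cells Tapbp was lower with VIP in 4 of 4 mice, although the cultures of mouse 2 were nearly equal (30.5 and 30.1 CPM), with a log2 fold change of −0.28 (SE 0.24, −0.78 to 0.22, edgeR adjusted p = 0.948), with overlapping groups. In whole organoids it was −0.02 (SE 0.12, −0.28 to 0.25).

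**Figure D3:**
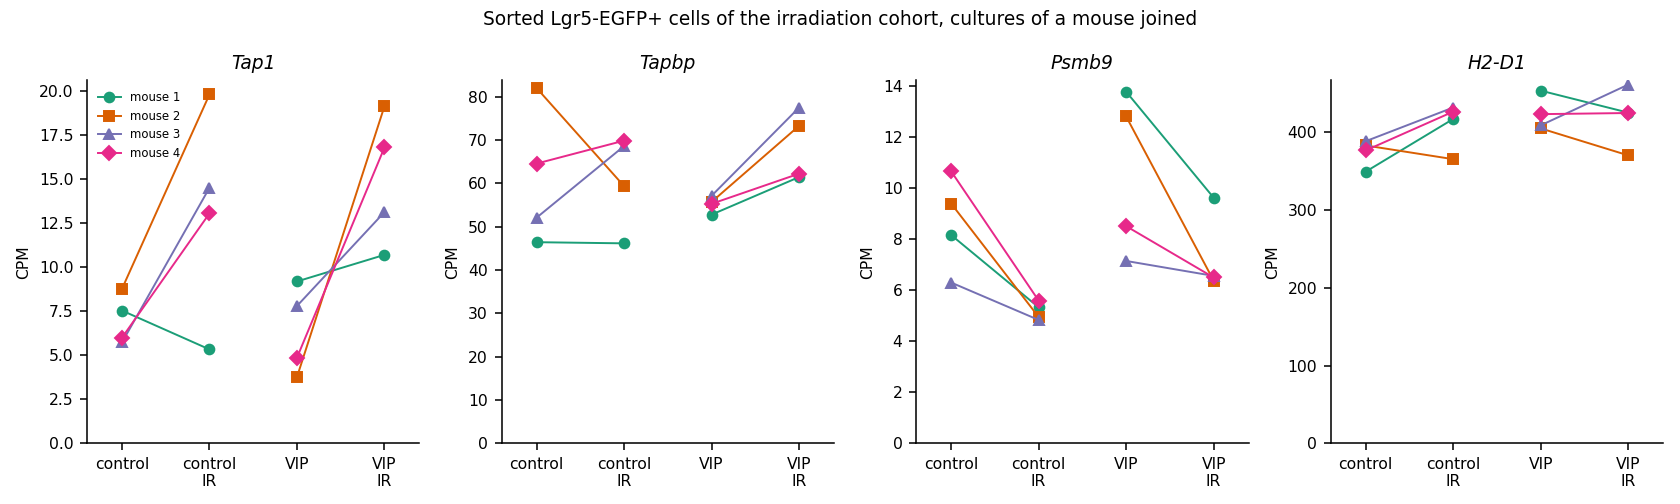
Levels in CPM (vertical axis, from 0) of Tap1, Tapbp, Psmb9 and H2-D1 in sorted cells of the irradiation cohort; lines join the non-irradiated and irradiated culture of a mouse, separately without and with VIP. Tap1 lines go up in 3 of 4 mice without VIP and 4 of 4 with VIP, Psmb9 lines go down in 4 of 4 mice in both, and Tapbp lines go up in 2 of 4 mice without and 4 of 4 with VIP.

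Psmb9, the immunosubunit that takes the place of Psmb6 and the divergent neighbour of Tap1, was lower after irradiation in each of the 4 mice without and with VIP. Control cells of mice 1 to 4 had 8.15, 9.39, 6.29 and 10.6 CPM and irradiated controls 5.32, 4.95, 4.83 and 5.59 CPM. The groups did not overlap, with a log2 fold change of −0.76 (SE 0.31, 95% interval −1.40 to −0.12, edgeR adjusted p = 0.195). In VIP-treated cells the values were 13.8, 12.8, 7.14 and 8.50 CPM without and 9.62, 6.37, 6.56 and 6.49 CPM with irradiation. These groups overlapped, with a log2 fold change of −0.50 (SE 0.27, −1.06 to 0.07, edgeR adjusted p = 0.303). Psmb9 rested on 5 to 18 UMIs per cohort sample.

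With VIP, the Psmb9 level of irradiated cells was above that of irradiated controls without overlap, by 0.53 on the log2 scale (SE 0.32, −0.12 to 1.19, edgeR adjusted p = 0.950). In the non-irradiated cohort it was 0.27 (SE 0.27, adjusted p = 0.767), with 3 of 4 mice higher. In whole organoids the direction was the other one: 17.5, 16.1 and 16.9 CPM untreated against 14.2, 12.2, 15.1 and 14.7 CPM with VIP. These groups did not overlap, and the log2 fold change was −0.29 (SE 0.16, −0.63 to 0.05, edgeR adjusted p = 0.412). The technical libraries of VIP-treated mouse 3 gave 11.8 and 19.6 CPM of Psmb9 by library size, the second above each untreated culture. In the first sorted experiment Psmb9 had 9, 6, 19 and 12 UMIs untreated and 16, 1, 4 and 15 UMIs with VIP and was not tested there alone.

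Psmb8, which replaces Psmb5, had its widest spread in untreated whole organoids. Mice 1 to 3 had 9.16, 5.77 and 25.7 CPM untreated, and mice 1 to 4 had 8.25, 5.69, 10.3 and 9.58 CPM with VIP. The untreated culture of mouse 3, with 90 UMIs in a single library, stood above all others. VIP gave −0.61 on the log2 scale (SE 0.25, −1.16 to −0.06, edgeR adjusted p = 0.242), and −0.10 without mouse 3 (adjusted p = 0.875). In the cohort, irradiation gave 0.30 (SE 0.28, −0.27 to 0.88) without VIP and 0.32 (SE 0.28, −0.26 to 0.90) with VIP on the log2 scale, with 3 of 4 mice higher in each. VIP gave −0.14 (−0.74 to 0.46) in non-irradiated and −0.13 (−0.69 to 0.43) in irradiated cells. Psmb8 had 0 to 7 UMIs per sample in the first sorted experiment and was not tested there alone.

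Psmb10, which replaces Psmb7, was the best covered immunosubunit, at 89 to 200 UMIs per cohort sample. Control cells had 97.2, 87.6, 106 and 106 CPM and irradiated controls 86.4, 75.8, 86.0 and 94.1 CPM. Each mouse was lower after irradiation and the groups overlapped, with a log2 fold change of −0.23 (SE 0.11, −0.45 to −0.01, edgeR adjusted p = 0.282). In VIP-treated cells it was −0.16 (SE 0.11, −0.38 to 0.06, adjusted p = 0.402), with 3 of 4 mice lower. The VIP difference of Psmb10 was −0.16 (SE 0.10) in whole organoids, 0.20 (SE 0.18) in Lgr5-EGFP+ cells, −0.02 (SE 0.10) in the non-irradiated cohort and 0.04 (SE 0.11) in irradiated cells on the log2 scale.

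Each immunosubunit was also set against the constitutive subunit it replaces, as a ratio of UMIs within a sample, which does not depend on library size. A ratio of 3′ UMIs of different genes can carry differences in capture, so only changes of a ratio were compared. In the cohort controls the median was 4.92% for Psmb8 over Psmb5, 1.22% for Psmb9 over Psmb6 and 53.7% for Psmb10 over Psmb7. Psmb9 over Psmb6 was lower in 4 of 4 mice after irradiation of untreated cells, at a median of 0.706%, with a mean log2 difference of −0.72 ± 0.19 (SD, n = 4). With VIP it was lower in 4 of 4 mice, with a mean log2 difference of −0.53 ± 0.41 and medians of 1.58% without and 0.916% with irradiation. In irradiated cells the ratio was higher with VIP in 4 of 4 mice, by 0.46 ± 0.27. The ratios were not tested apart from the genes themselves.

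**Figure D4:**
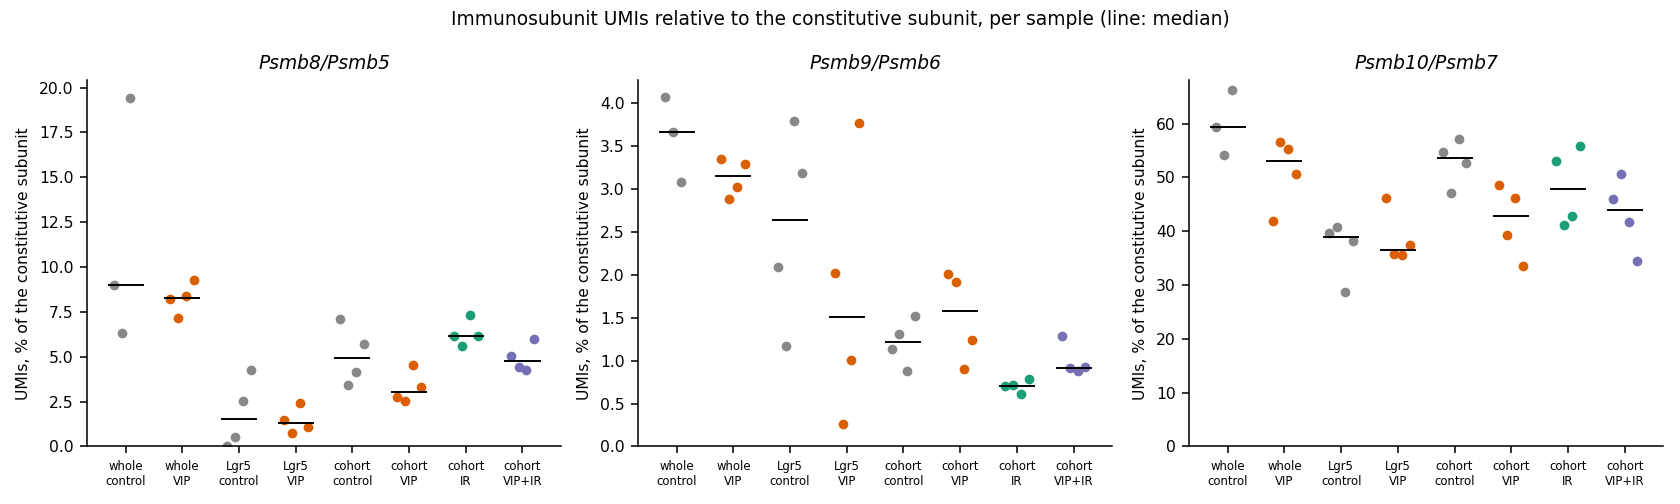
UMIs of Psmb8, Psmb9 and Psmb10 as a percentage of the UMIs of Psmb5, Psmb6 and Psmb7 (vertical axis, from 0) in every sample of the 8 groups; points are samples and lines are medians. Among the 4 cohort groups, the median of Psmb9 over Psmb6 is lowest in the irradiated controls (0.706%). Psmb10 over Psmb7 is lower in the VIP group of the cohort (median 42.8%) than in its controls (53.7%).

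For the other pairs, the VIP difference in the cohort was larger in the constitutive subunit than in the immunosubunit, which was not tested as a difference. Psmb10 over Psmb7 was lower with VIP in 4 of 4 mice of the non-irradiated cohort, by a mean log2 difference of −0.35 ± 0.21 (SD, n = 4), while the log2 fold change of Psmb10 was −0.02 and that of Psmb7 was 0.33 (SE 0.09, edgeR adjusted p = 0.0942). Psmb8 over Psmb5 differed by −0.59 ± 0.61 on the log2 scale with VIP, and was lower in 3 of 4 mice. Psmb5, the constitutive chymotrypsin-like subunit, rose with VIP in that comparison, with a log2 fold change of 0.45 (SE 0.10, edgeR adjusted p = 0.0221). With VIP in the first sorted experiment Psmb5 differed by 0.07 (SE 0.14, edgeR adjusted p = 0.973) and Psmb7 by 0.12 (SE 0.14, adjusted p = 0.957). In whole organoids Psmb5 differed by −0.11 (SE 0.10, edgeR adjusted p = 0.650) and Psmb7 by 0.07 (SE 0.10, adjusted p = 0.801). In irradiated cells Psmb8 over Psmb5 was lower with VIP in 4 of 4 mice, by −0.37 ± 0.31. Psmb6 differed by at most 0.07 in size in the 6 comparisons on the log2 scale.

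Nlrc5, the transactivator of class I genes, was close to the limit of detection in the cohort. It had 9 UMIs over 16 samples, and 11 of the samples had 0. The counts above 0 were 1 and 1 in controls of mice 1 and 3, 1 in the irradiated control of mouse 1, 2 in VIP-treated cells of mouse 1 and 4 in irradiated VIP-treated cells of mouse 4. No comparison was made for Nlrc5.

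The VIP effects on the members were also compared between conditions. No member passed the interaction of VIP and irradiation (0 of 8, background 0%, and 0 at the unadjusted p of 0.05 against 6.36% of all genes). None passed the test of whether VIP acted differently in whole organoids and in the first sorted experiment (0 of 7, background 0.147%, and 0 at the unadjusted p of 0.05 against 6.24%). DESeq2's Wald test called 0 members in both, and 0 of 9976 and 20 of 10186 genes over all. The widest of these intervals belonged to Psmb8 between compartments, −1.36 to 1.96 on the log2 scale, and the narrowest to B2m between irradiated and non-irradiated cells, −0.10 to 0.29. Psmb8 and Psmb9 had only 0 to 7 and 1 to 19 UMIs per sample in the first sorted experiment. These counts were too low for the test between compartments to decide about them.

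Some of the other genes of the pathway passed the test. Of all genes, 4.46% were called for irradiation of untreated cells and 7.78% for irradiation of VIP-treated cells. In untreated cells irradiation raised 1 of 4 tested class II genes, Cd74, the invariant chain (log2 fold change 2.09, SE 0.44, edgeR adjusted p = 0.00474). It lowered 1 of 7 other class I heavy chains, H2-Q10 (−0.47, SE 0.12, adjusted p = 0.0159), 1 of 12 peptide supply and loading genes, Psme2, a subunit of the proteasome activator PA28 (−0.55, SE 0.15, adjusted p = 0.0321), and 1 of 18 regulators, Irf8 (−0.33, SE 0.09, adjusted p = 0.0389). In VIP-treated cells irradiation lowered 2 of 7 other heavy chains, H2-Q10 (−0.70, SE 0.11, edgeR adjusted p = 2.33e-04) and H2-T3 (−0.90, SE 0.27, adjusted p = 0.0424). It also lowered 2 of 18 regulators, Irf8 (−0.48, SE 0.09, edgeR adjusted p = 0.00117) and Nfyc, a subunit of the CCAAT-binding factor NF-Y (−0.47, SE 0.13, adjusted p = 0.0228). None of 4 class II genes, Cd74 included, and none of 12 peptide supply and loading genes was called in VIP-treated cells. None of 14 constitutive core subunits and 7 interferon-stimulated genes was called in either irradiation comparison. Irf1, an interferon-induced factor that acts on class I promoters, gave 0.19 (SE 0.28, edgeR adjusted p = 0.794) without and 0.52 (SE 0.27, adjusted p = 0.262) with VIP.

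With VIP in whole organoids, 3 of 15 tested interferon-stimulated genes rose: Oasl1 (log2 fold change 1.70, SE 0.16, edgeR adjusted p = 1.73e-05), Irf7 (1.03, SE 0.20, adjusted p = 0.00662) and Ifi27 (1.01, SE 0.19, adjusted p = 0.00597). Of all genes, 4.82% were called in that comparison. The median of the 15 interferon-stimulated genes was 0.76, beside −0.07 for the 9 members. In the same comparison 6 of 7 goblet cell markers and 4 of 7 epithelial markers were higher, with list medians of 0.70 and 0.38 on the log2 scale. The summed goblet level was 5346 to 7216 CPM untreated and 7710.0 to 9398 CPM with VIP, and its part in the H2-D1, Psmb9 and interferon-stimulated gene values was not tested. No interferon-stimulated gene was called with VIP in the sorted cells, where 3 and 7 could be tested. In the non-irradiated cohort VIP lowered 1 of 7 other class I-like chains, Fcgrt, the heavy chain of the neonatal Fc receptor (−1.68, SE 0.37, edgeR adjusted p = 0.0300). The share of all genes called there was 0.742%. NKG2D ligands could be tested in whole organoids only, with 1 gene, which was not called.

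Markers of epithelial cell types moved with irradiation, beside 4.46% and 7.78% of all genes called in untreated and VIP-treated cells. All 5 tested Paneth cell markers were higher after irradiation of untreated and of VIP-treated cells, and their summed level was 9908 to 14412 CPM in controls, 14451 to 27976 in irradiated controls, 8394 to 9692 with VIP and 14423 to 16508 CPM with VIP and irradiation. Goblet cell markers were higher for 5 and 3 of 7 tested, enterocyte markers for 3 and 1 of 8, and tuft and enteroendocrine markers for 2 and 3 of 5. Of 9 tested stem cell markers 2 and 3 were lower, with list medians of −0.19 and −0.31 on the log2 scale. Olfm4, one of those lower, fell by 0.64 and by 0.86 on the log2 scale (edgeR adjusted p = 1.96e-06 and 8.02e-09). Markers also moved with VIP within the cohort. In irradiated cells the list medians were −0.62 for Paneth, −0.66 for goblet, −0.87 for enterocyte and 0.11 for stem cell markers, with 0, 1, 1 and 1 called. In non-irradiated cells they were −0.41, −0.36, −0.53 and 0.16, with 0, 0, 2 and 1 called. Of all genes, 0.221% and 0.742% were called. Immune cell markers, of which 12 of 17 were listed, summed to 3.33 to 13.2 CPM in controls, 8.24 to 11.6 in irradiated controls, 2.29 to 7.14 with VIP and 6.49 to 12.3 CPM with VIP and irradiation. Ptprc, the pan-leukocyte marker, had 10 UMIs over the 16 samples. The part of these shifts in the Tap1, Tapbp, H2-D1, Psmb9, Psmb5 and Cd74 values was not tested.

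The likeness between members across the cohort was uneven. Over the 16 samples, after centring on each mouse, Pearson's r between members ran from −0.68 (Psmb8 and Psmb9) to 0.63 (Psmb9 and Psmb10), with 0.60 for Tap1 and Psmb8, 0.53 for Tap1 and Tapbp and −0.54 for Tap1 and Psmb9. These values describe samples that share mice, groups and library preparation. Against the mean of the 8 tested members, r was 0.77 for Tap1 and 0.76 for Tapbp and between −0.11 and 0.26 for the other 6. Each member is itself part of that mean, which adds to its r. The 5 other genes most like that mean among 9976 were Eif3j2 (r = 0.84), Pex14 (0.82), 1500002C15Rik (0.81), Tef (0.80) and Phykpl (0.79). The r that chance gives to the top of so many genes was not measured.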

How the data were processed

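RNA was captured by its poly(A) tail, and each molecule received a sample barcode and a UMI. The authors obtained the tables with the Drop-seq pipeline 1.0, using GRCm38 (the build in the submitters' processing notes) and GENCODE M25. The deposited values were raw UMI counts, in tables of 27407, 20500 and 27547 genes and 13, 8 and 16 libraries (0 columns without a sample). The technical libraries of a whole organoid culture were summed, giving 7, 8 and 16 samples. Gene positions came from GENCODE M21 and promoters from RefSeq on GRCm38.p6.

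The models were run with edgeR 4.0.16 under R 4.3.3: filterByExpr by group, TMM factors, quasi-likelihood tests blocked by mouse, Benjamini-Hochberg adjustment over all genes tested and a threshold of 0.05. The 4 cohort groups were fitted together. Genes tested numbered 12727, 6778 and 9976, and 10186 for the interaction with the compartment. Members tested numbered 9, 5 and 8. Intervals are 95% intervals of the fold change. Log2 CPM used a prior count of 2 and ratios a pseudocount of 0.5. The scripts were tested on simulated data.

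Pairing came from the mouse named in the labels. As a check, deviations from the group mean were correlated across genes. Whole organoids gave 0.27 to 0.63 within a mouse and −0.54 to 0.33 between mice, the first sorted experiment 0.03 to 0.21 and −0.14 to 0.15, and the cohort −0.07 to 0.16 and −0.20 to 0.20.

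The members, gene lists and marker lists were chosen with earlier results of these data known. Genes named were the members, Psmb5, Psmb6 and Psmb7, at most 4 genes of a pathway list past the threshold in a comparison, and the 5 genes most like the members' mean. Irf1 and Olfm4 were added after their values were seen. Alternatives were DESeq2 1.42.0 (Wald test), RLE factors, library size only, all genes with any count, at least 10 counts in every sample, leaving out mitochondrial genes, no mouse block, each mouse left out, the first technical library only, the second technical library of VIP-treated mouse 3 left out, and only the 2 groups compared.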

Additional observations from a re-analysis of the deposited data

Results flagged for a closer look

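Of the groups of 4 samples, 67 were examined for a sample far from the other 3, and 4 were flagged. Chance alone flags about 1 in 20 such groups. Psmb9 in irradiated VIP-treated cells had 9.62 CPM in mouse 1, against 6.37 to 6.56 CPM in the other 3 mice. Nlrc5 had 0.592 CPM in the irradiated control of mouse 1, 1.53 CPM in VIP-treated cells of mouse 1 and 2.16 CPM in irradiated VIP-treated cells of mouse 4, each with the other 3 mice of the group at 0. These Nlrc5 values are 1, 2 and 4 UMIs. The rule always flags a group with only 1 sample above 0, so the rate of 1 in 20 does not hold for Nlrc5.

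The Psmb9 values with VIP differed in direction between 2 experiments, and neither difference passed the threshold. In whole organoids the within-mouse log2 difference averaged −0.29 (−0.40 to −0.18, lower in 3 of 3 mice), and in irradiated Lgr5-EGFP+ cells it averaged 0.33 (0.02 to 0.72, higher in 4 of 4 mice). In the first sorted experiment Psmb9 was lower in 3 of 4 mice. The difference between these experiments was not tested, since they were normalized and fitted separately.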

How the results depend on the processing

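Tap1 after irradiation of VIP-treated cells was past the threshold in 7 of 11 alternatives. The count of called members there was 0 instead of 1 with DESeq2's Wald test and with at least 10 counts in every sample, a filter that Tap1 did not pass, and 0 to 1 when each mouse was left out (0 without mouse 2, 3 or 4), with a Tap1 log2 fold change of 0.92 to 1.54. Over all genes, DESeq2 called 489 of 9976 and the filter of 10 counts 662 of 7338. Without mouse 1, 2, 3 or 4, 691 of 9951, 474 of 10052, 542 of 10036 and 426 of 10011 genes were called. The main fit called 776 of 9976. For irradiation of untreated cells the count was 0 to 1 over the mice left out, with Tap1 at 0.68 to 1.23. It was 1 without mouse 1, where 643 of 9951 genes were called, against 445 of 9976 in the main fit. For VIP in whole organoids the count of called members was 1 with all genes with any count and without the second library of VIP-treated mouse 3 (H2-D1), 2 with the first technical libraries only (H2-D1 and Psmb8), and 0 to 1 over the mice left out, with H2-D1 at 0.24 to 0.41. Over all genes, the first 3 of these settings called 979 of 27407, 1261 of 12684 and 881 of 11354. Without mouse 3, where H2-D1 passed, 1668 of 12993 genes were called. The main fit called 614 of 12727. Without the mouse block the counts in the 6 comparisons and the interactions were as with it, 1 for irradiation of VIP-treated cells (Tap1 1.20, adjusted p = 0.0316) and 0 elsewhere. That setting called 642 of 9976 genes for irradiation of VIP-treated cells. All signs that turned belonged to differences that had not passed the threshold. They were Tap2 with VIP in whole organoids without the mouse block (0.032), Tapbp there with the first technical libraries (0.018) and without the second library of mouse 3 (0.059), H2-K1 with VIP in Lgr5-EGFP+ cells by library size (0.033) and with at least 10 counts (0.0053), H2-D1 after irradiation of VIP-treated cells by library size (0.0016), with at least 10 counts (0.012) and with the 2 groups alone (0.0049), and H2-K1 after irradiation of untreated cells with at least 10 counts (0.011). Leaving out single mice also turned signs, with these ranges of log2 fold change. In VIP-treated whole organoids they were −0.10 to 0.086 for Tap1, −0.41 to 0.18 for Tap2 and −0.13 to 0.17 for Tapbp, and H2-K1 in Lgr5-EGFP+ cells ran from −0.054 to 0.096. With VIP in the non-irradiated cohort they were −0.083 to 0.032 for B2m, −0.039 to 0.034 for H2-K1, −0.33 to 0.15 for Tap1, −0.22 to 0.022 for Tapbp and −0.072 to 0.043 for Psmb10, and in irradiated cells −0.033 to 0.067 for H2-K1 and −0.069 to 0.13 for Psmb10. With irradiation they were −0.047 to 0.038 for H2-K1 and −0.14 to 0.16 for Tapbp in untreated cells, and −0.10 to 0.018 for B2m and −0.061 to 0.029 for H2-D1 in VIP-treated cells. For the interaction of VIP and irradiation they were −0.0073 to 0.11 for H2-K1, −0.26 to 0.25 for Psmb8 and −0.014 to 0.11 for Psmb10, and for that of VIP and compartment −0.22 to 0.038 for H2-D1, −0.13 to 1.10 for Psmb8 and −0.79 to 0.26 for Psmb9. The cause was not tested. Low counts limit Tap1, Tap2, Psmb8, Psmb9 and Nlrc5.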
